A study of Mus musculus with 96 samples.

Results

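Among 96 single cells of mouse marrow labelled as erythroid precursors, 14 listed little alpha-globin and much Plac8, and these 14 fell into 5 cells with low and 9 cells with high Mpo, the gene of myeloperoxidase. Members were chosen by measured values: at least 1000 gene symbols at 1 RPKM or more, Hba-a1 (alpha-globin) below 5000 RPKM and Plac8 at 500 RPKM or more. RPKM scales the reads of a transcript by its length and by the mapped reads of the cell. Cells with Mpo below 1000 RPKM (cells 3, 33, 54, 60 and 68) were compared with cells at 1000 RPKM or more (cells 11, 12, 20, 25, 50, 57, 74, 77 and 88). Of the 96 cells, 69 had enough genes. Besides the 14, these were 53 globin-rich cells and 2 globin-low cells that listed Plac8 at 0.

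Every cell had the genotype Rpl11 +/lox on a C57BL/6 background, so all carried the same change at Rpl11, a gene of the large ribosomal subunit, and no wild-type cell was included. The labels name neither animals, their number, ages, nor the driver of any recombination. The study addressed red cell formation from the burst-forming progenitor to the basophilic erythroblast in these mice. Cells were isolated on the Fluidigm C1, a microfluidic device that captures cells in separate chambers, and their cDNA was amplified by SMART-Seq, which copies whole transcripts. With 1 labelled group and no named animal, cells are not replicates of a condition, so no test was possible and the values below describe these 14 cells.

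Plac8 and Ly6c2 are transcripts of many marrow myeloid cells and their progenitors. Granulocyte precursors at the promyelocyte stage make the proteins of the primary granules, among them myeloperoxidase and the serine proteases neutrophil elastase (Elane), proteinase 3 (Prtn3) and cathepsin G (Ctsg), which are folded in the endoplasmic reticulum. Monocyte and dendritic cell precursors, guided in part by the transcription factor gene Irf8, make Ctss, Cd14 and related transcripts. Multipotent and lymphoid-primed progenitors are known for Cd34, Flt3 and Cd27, and basophils for the proteases Prss34 and Mcpt8.

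The rule fixed the values of Plac8, Mpo and Hba-a1, which are therefore no finding, and Mpo was the contrast itself. Plac8 was 4499 RPKM in cell 3, 3905 in cell 33, 2184 in cell 54, 3884 in cell 60 and 3843 in cell 68. In the Mpo-high cells Plac8 ran from 939 (cell 12) to 7194 RPKM (cell 20), with a median of 4107, so the Mpo-low values lay inside the range of the other set. Mpo was 371 RPKM in cell 3 and 28.0 in cell 68. In cells 33, 54 and 60 Mpo was 0.0988, 0.134 and 0.142 RPKM, an estimated 1 read each. The Mpo-high cells ran from 1543 RPKM (cell 74) to 18579 (cell 57), with a median of 11336. Hba-a1 was 104, 798, 3477, 4332 and 723 RPKM in cells 3, 33, 54, 60 and 68, and 49.6 to 532 RPKM in the Mpo-high cells. The cells nearest to a limit were cell 60 at 4332 (inside) and cell 31 at 5748 RPKM (outside) for Hba-a1, cell 12 at 939 and cell 47 at 22.6 RPKM for Plac8, and cells 3 and 74 for Mpo. Over all cells, the gene minimum fell between cell 62 with 923 and cell 2 with 1003 genes. The lowest number of genes among globin-low, Plac8-high cells was 1842, so the gene minimum left none of them out.

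Genes at 1 RPKM or more numbered 2047 to 4275 (median 3359) in the Mpo-low cells and 1842 to 6013 (median 4900) in the Mpo-high cells. Estimated depth, in units of 1000000 reads, ran from 2.77 to 7.45 in the former and from 1.95 to 6.43 in the latter. Of 20 housekeeping genes, 20 were at 10 RPKM or more in 10 of the 14 cells. The exceptions were cells 12 and 54 (13 genes each), 33 (16) and 68 (17), and in these 4 cells 2 to 5 housekeeping genes were listed at 0. A gene at 0 is therefore described only as listed at 0. The sample descriptions carry 3 codes, whereas the titles give the code SCP-1706080 to all 96 cells, and the labels do not say what the codes stand for. Values by code below use the descriptions. These were spread unevenly, with 3 Mpo-low and 3 Mpo-high cells under SCP-170608, 2 and 5 under SCP-1706080, and 0 and 1 under SCP-1706013. Rpl11 itself was listed at 545, 237, 0, 126 and 372 RPKM in cells 3, 33, 54, 60 and 68 and at 0 to 610 RPKM (median 364) in the Mpo-high cells, which overlap.

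Of the marker genes proposed for these cells besides Plac8, none separated the sets. Ly6c2, a surface protein of monocytes and myeloid progenitors, was 10578 RPKM in cell 33, 5943 in cell 60 and 167 in cell 3, and was listed at 0 in cells 54 and 68. In the Mpo-high cells it was listed at 0 in cell 11 and ran from 1317 to 12981 RPKM in the other 8. Irf8 was 805, 161 and 815 RPKM in cells 3, 33 and 60 and was listed at 0 in cells 54 and 68, against 0 to 210 RPKM (median 43.4) in the Mpo-high cells. Cells 54 and 68 thus listed both of these monocyte lineage genes at 0. Lgals1, the galectin-1 gene, was listed in all 14 cells, at 264 to 5825 RPKM in the Mpo-low and 15.7 to 1648 in the Mpo-high cells. Coro1a, an actin regulator of blood cells, was 282 to 967 RPKM in the Mpo-low cells and 0 (cell 12) to 909 in the Mpo-high cells. Cd52, a leukocyte surface protein, was 390, 1989, 0, 189 and 1141 RPKM in cells 3, 33, 54, 60 and 68. It reached 796 RPKM in Mpo-high cell 74 and 0 to 76.9 in the other 8. In the globin-rich cells Coro1a, Irf8 and Cd52 did not exceed 1 RPKM. There Ly6c2 reached 128 RPKM and Lgals1 51.3 RPKM, with 1 and 2 of the 53 cells at 10 RPKM or more. Ly6c1, a near copy of Ly6c2, had a median of 0.474 of its value over 11 cells, so the split of reads between these genes is uncertain.

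Differences below are mean log2(RPKM + 1) of the Mpo-low cells minus that of the Mpo-high cells, a scale on which 2 equals 4-fold and which understates differences of low genes. Genes had to reach 1 RPKM in 3 or more of the 14 cells, and over the 7384 that did the median difference was -0.72, with 2214 genes above 0 and 5170 below. By a difference of at least 2, 180 genes (2.44%) were higher and 1398 (18.9%) lower in the Mpo-low cells, the set with fewer genes per cell. The part of the gene number in these counts was not tested. The filter could also be met by 1 set alone, in 3 of the 9 Mpo-high or 3 of the 5 Mpo-low cells. A gene that met it so and was listed at 0 throughout the other set had its direction fixed by the filter. The 2 percentages, and the list counts below, include such genes. Medians by code below applied the filter again to the cells of that code alone, so their genes can differ from those compared over the 14 cells. Values of the sets did not overlap for 5 higher genes (0.0677%) and 12 lower genes (0.163%), Mpo among the latter. Without cell 54 these 4 counts were 302 (4.15%), 1247 (17.1%), 17 (0.233%) and 16 (0.22%). Without cells 12 and 54, which had the fewest genes of their sets, they were 253 (3.53%), 1617 (22.5%), 22 (0.307%) and 56 (0.78%). With cell 74, the Mpo-high cell nearest the limit, left out as well they were 245 (3.53%), 1730 (24.9%), 26 (0.374%) and 108 (1.55%).

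**Figure D1:**
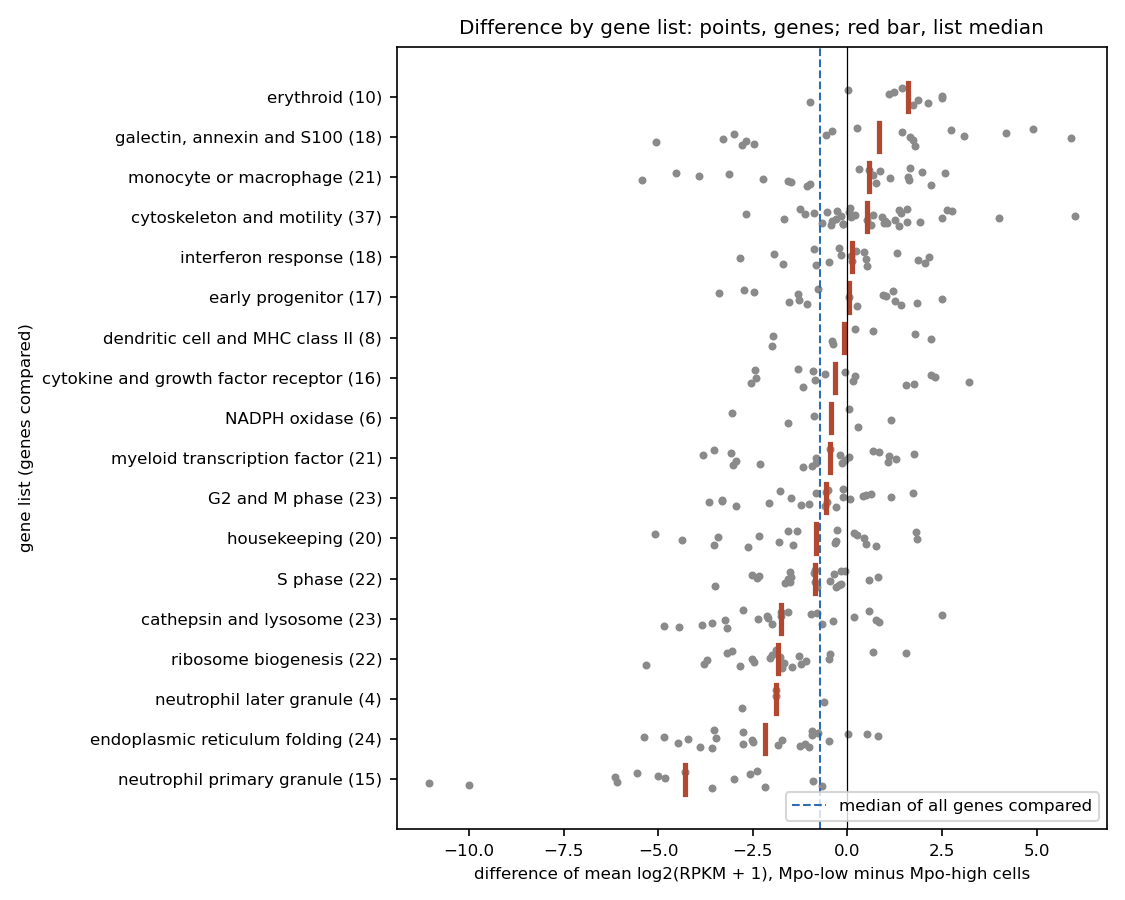
Difference of mean log2(RPKM + 1), Mpo-low minus Mpo-high cells (horizontal axis), for each gene (points) of the lists with at least 4 genes compared; red bars are list medians, the dashed line is the median of all genes. The primary granule list lies lowest at a median of -4.30 and the erythroid list, which holds the Hba-a1 used by the rule, highest at 1.59.

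Primary granule genes had the lowest median of the lists with at least 4 genes compared, and Mpo itself was left out of it. All 15 genes compared were below 0, 13 of them by at least 2 and 0 higher, with a median of -4.30, against 18.9% of all genes lower by 2 and a median of -0.72. Elane was 72.5 RPKM in cell 3, 0.393 in cell 60 (an estimated 1 read), and listed at 0 in cells 33, 54 and 68. In the Mpo-high cells it ran from 220 (cell 74) to 24064 RPKM (cell 57), with a median of 9537. Ctsg was 80.3 RPKM in cell 3 and listed at 0 in the other 4 Mpo-low cells, against 513 to 6056 RPKM (median 2704). Neither gene overlapped between the sets. At the estimated depths, 3 reads of Elane would give 0.409 to 1.10 RPKM in the Mpo-low cells, under the 220 RPKM of the lowest Mpo-high cell. That limit covers counting error only, and amplified reads are not independent molecules.

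Prtn3 differed from Elane and Ctsg in the Mpo-low cells. It was 430 RPKM in cell 3, 190 in cell 33, 167 in cell 60 and 94.0 in cell 68, and listed at 0 in cell 54. The Mpo-high cells listed it at 1221 to 8758 RPKM (median 3508), above all Mpo-low cells. The globin-rich cells did not exceed 0.321 RPKM. Cells 33, 60 and 68 thus listed Prtn3 with Elane and Ctsg at or near 0.

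Calr, the fourth gene of this list without overlap, is given with the folding genes. The other 11 genes compared overlapped between the sets. Ms4a3, a membrane protein of granulocyte and monocyte progenitors, was 312 RPKM in cell 54 and listed at 0 in the other 4 Mpo-low cells. It reached 3323 RPKM in the Mpo-high cells but was listed at 0 in cells 12 and 74. Gstm1, a glutathione transferase, was 608 RPKM in cell 68 alone among the Mpo-low cells, against 0 to 2944 RPKM (median 976). Nkg7, a granule membrane protein, was 834 RPKM in cell 54 and 134 in cell 68, and 0 to 2763 RPKM (median 967) in the Mpo-high cells. Srgn, the proteoglycan core of granules, was 417, 0, 2045, 233 and 2268 RPKM in cells 3, 33, 54, 60 and 68 and 297 to 4253 RPKM in the Mpo-high cells. Within the code SCP-170608 the list median was -3.77 and within SCP-1706080 it was -4.30, where all genes had medians of -1.29 and -0.21.

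**Figure D2:**
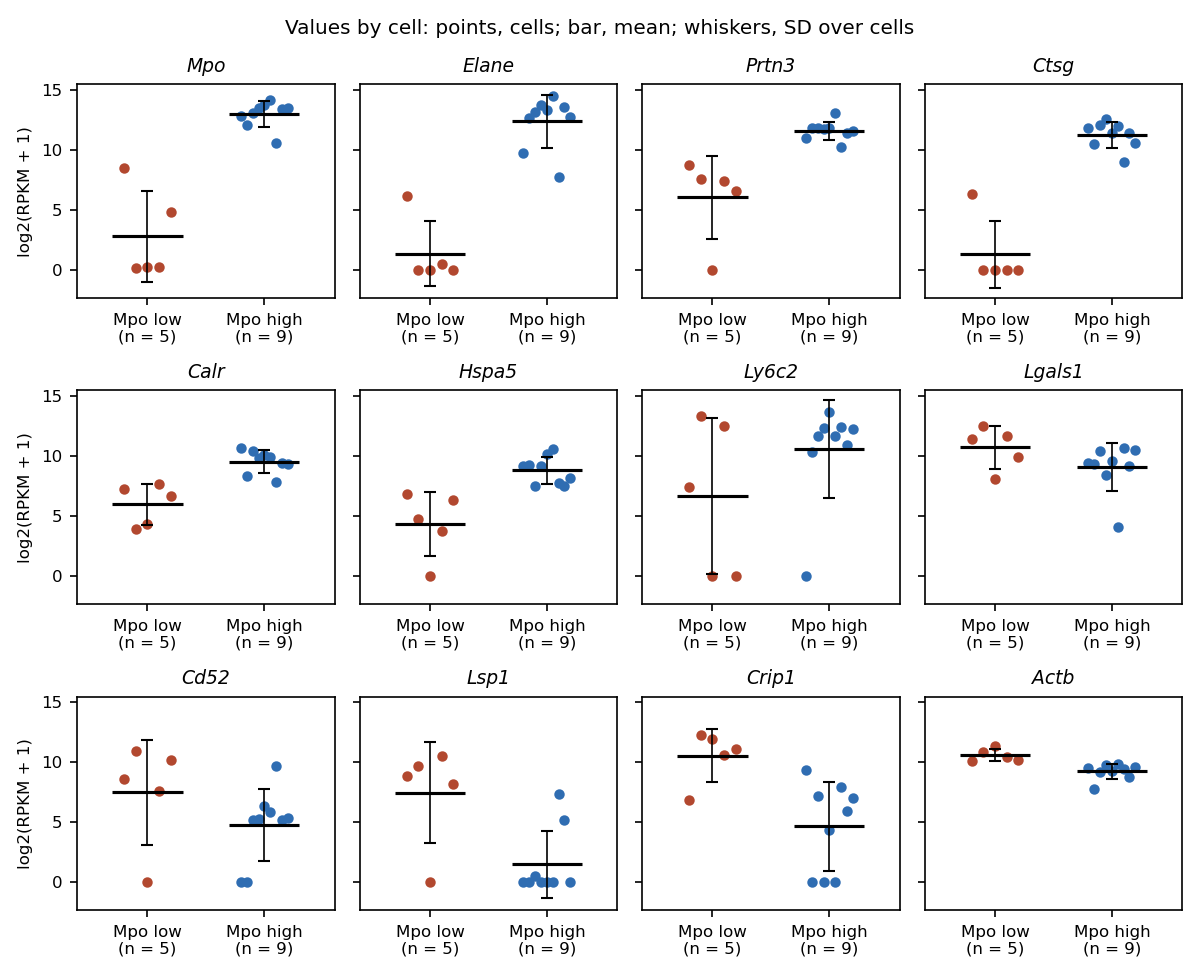
Level of 12 genes as log2(RPKM + 1) (vertical axis) in the 5 Mpo-low and 9 Mpo-high cells (points), with the mean (bar) and the SD over cells (whiskers). Mpo, Elane, Prtn3, Ctsg, Calr and Hspa5 are lower and Actb higher in every Mpo-low cell, while Ly6c2, Lgals1, Cd52, Lsp1 and Crip1 overlap.

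Mpo, Elane, Prtn3 and Ctsg lie on 3 chromosomes, with Prtn3 and Elane close together on chromosome 10. Their promoters are shown because the transcripts separated the sets. Genes and motifs were chosen after the values were seen. The sequences are the 250 bases before the transcription start from RefSeq in build GRCm38.p6, which is not the build of the expression values. Capitals mark GAGGAA, the core of sites for the factor PU.1, searched on both strands. The Mpo window is chr11:87793534-87793783 on the plus strand, that of Elane chr10:79886062-79886311 (plus), that of Prtn3 chr10:79879417-79879666 (plus) and that of Ctsg chr14:56102575-56102824 (minus).
Mpo: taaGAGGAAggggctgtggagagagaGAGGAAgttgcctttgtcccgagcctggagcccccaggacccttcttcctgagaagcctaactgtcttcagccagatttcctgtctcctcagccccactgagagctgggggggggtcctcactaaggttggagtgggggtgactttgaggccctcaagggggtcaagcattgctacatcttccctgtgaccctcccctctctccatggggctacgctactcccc
Elane: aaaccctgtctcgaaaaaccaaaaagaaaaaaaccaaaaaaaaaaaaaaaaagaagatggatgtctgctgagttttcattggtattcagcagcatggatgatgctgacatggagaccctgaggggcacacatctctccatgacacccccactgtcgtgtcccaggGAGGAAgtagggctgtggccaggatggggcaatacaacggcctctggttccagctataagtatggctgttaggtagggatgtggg
Prtn3: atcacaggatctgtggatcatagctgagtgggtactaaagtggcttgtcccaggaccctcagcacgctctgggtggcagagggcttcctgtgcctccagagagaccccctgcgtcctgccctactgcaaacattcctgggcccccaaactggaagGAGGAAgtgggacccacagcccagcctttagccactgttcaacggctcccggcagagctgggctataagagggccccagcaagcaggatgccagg
Ctsg: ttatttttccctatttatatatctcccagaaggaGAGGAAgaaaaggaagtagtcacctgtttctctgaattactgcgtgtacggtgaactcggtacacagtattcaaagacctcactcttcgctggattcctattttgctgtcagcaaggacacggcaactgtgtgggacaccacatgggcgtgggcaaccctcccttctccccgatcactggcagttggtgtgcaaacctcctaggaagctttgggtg
The Mpo window held 2 matches and the other 3 held 1 each, and 23.25% of 32851 promoter windows of this length held at least 1. TTNNGCAAT, a core of C/EBP sites, was in none of these windows and in 1.93% of all. A match describes letters and not binding, and binding was not measured. Spi1, the gene of PU.1, was 300, 0.189, 0, 148 and 3.13 RPKM in cells 3, 33, 54, 60 and 68. In the Mpo-high cells it was listed at 0 in cell 12 and was 86.8 to 271 RPKM in the other 8.

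Transcripts of protein folding in the endoplasmic reticulum had the second lowest median among lists with at least 4 genes compared. Of 24 genes compared, 12 were lower by at least 2 and 0 higher, with a median of -2.17, and 2 did not overlap, against 18.9% lower and 0.163% without overlap among all genes. Calr, the calcium-binding chaperone calreticulin, was 149, 14.0, 19.3, 201 and 99.3 RPKM in cells 3, 33, 54, 60 and 68, all under the 223 to 1641 RPKM (median 896) of the Mpo-high cells. Calr was also in the primary granule list and is counted in both. Hspa5, the chaperone BiP, was 114, 25.4, 0, 12.0 and 78.2 RPKM, against 175 to 1537 RPKM (median 565). Its Mpo-low values were all below every Mpo-high value. Pdia6, a disulfide isomerase, overlapped, at 180 and 151 RPKM in cells 3 and 60 and listed at 0 in the other 3 Mpo-low cells, against 96.3 to 722 RPKM. Sdf2l1 (-4.85) and Hsp90b1, the chaperone GRP94 (-2.77), were also lower with overlap, as was Pdia3. By code, the list median was -2.43 under SCP-170608 and -1.85 under SCP-1706080.

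Calr and Hspa5 are known targets of the endoplasmic reticulum stress response, and their promoters are shown for the response element. Capitals mark CCAAT followed by any 9 bases and CCACG, on either strand. The windows are chr8:84846932-84847181 on the minus strand for Calr and chr2:34771840-34772089 on the plus strand for Hspa5.
Calr: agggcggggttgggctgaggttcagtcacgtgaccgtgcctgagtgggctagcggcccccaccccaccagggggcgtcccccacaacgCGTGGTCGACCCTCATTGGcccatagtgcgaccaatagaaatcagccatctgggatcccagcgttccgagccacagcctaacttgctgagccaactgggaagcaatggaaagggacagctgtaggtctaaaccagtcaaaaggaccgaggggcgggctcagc
Hspa5: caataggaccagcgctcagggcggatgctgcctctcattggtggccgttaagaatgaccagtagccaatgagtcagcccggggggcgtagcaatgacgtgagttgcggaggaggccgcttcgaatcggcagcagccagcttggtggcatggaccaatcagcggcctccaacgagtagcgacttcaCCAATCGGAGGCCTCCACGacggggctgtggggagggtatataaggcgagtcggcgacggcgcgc
Each window held 1 match, and 0.113% of the 32851 windows held this motif. The windows of Mpo, Elane, Prtn3 and Ctsg held 0. No activity of the element was measured.

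Monocyte and macrophage genes did not separate the sets. Of 21 genes compared, 2 were higher and 5 lower by at least 2, against 2.44% and 18.9% of all genes. The monocyte list median difference was 0.57, beside -0.72 for all genes. Within SCP-170608 the list median was -1.60 and within SCP-1706080 it was 1.45, where all genes had -1.29 and -0.21. The list median fell below 0 without cell 33 (-0.36), cell 60 (-0.11), cell 3 (-0.0089) or cell 11 (-0.0054), so it had no stable sign. Markers at 10 RPKM or more numbered 9, 14, 5, 13 and 4 of 24 in cells 3, 33, 54, 60 and 68, and 4 to 18 in the Mpo-high cells. The highest count, 18, was in Mpo-high cell 74. Summed levels of the list were 510 to 13787 RPKM in the Mpo-low and 1366 to 14889 RPKM in the Mpo-high cells, and at most 128 RPKM in the globin-rich cells.

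Single monocyte genes differed in direction. Cd14, the lipopolysaccharide co-receptor, was 179 and 222 RPKM in cells 33 and 60 and listed at 0 in cells 3, 54 and 68. Among the Mpo-high cells it was 77.9 RPKM in cell 57 and at most 1.55 in the others. Mpeg1, a pore-forming protein of macrophages, was 189, 106 and 3.22 RPKM in cells 33, 60 and 3, and 72.4 in Mpo-high cell 74. Cd14 (2.21) and Mpeg1 (2.58) were the 2 higher genes. Among the lower genes was Fcgr3 (-5.42), an IgG receptor at 80.0 RPKM in cell 54 alone of the Mpo-low cells and 0 to 580 RPKM in the others. Lyz2 (-4.53), lysozyme, was 344 RPKM in cell 68 alone and 0 to 800 RPKM in the Mpo-high cells. Its near copy Lyz1 (-3.13) had a median of 0.191 of its value, so the pair is not independent. Ms4a6c was 677, 840, 68.1, 1304 and 0 RPKM in cells 3, 33, 54, 60 and 68, against 0 to 1027 RPKM (median 130).

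Dendritic cell and MHC class II genes had a median of -0.088 over 8 genes, with 1 higher and 0 lower by at least 2. Among all genes the median was -0.72, with 2.44% higher and 18.9% lower. The other 12 of the 20 listed genes did not pass the filter, among them Cd7, Cd209a and Cox6a2, and enter neither count nor median. By code the list median was -1.18 (SCP-170608) and 5.53 (SCP-1706080), where all genes had -1.29 and -0.21. The 5.53 rested on 2 Mpo-low cells and equalled the highest difference of H2-DMa in any of the settings given at the end. Bst2 and H2-DMb1 did not pass the filter under SCP-1706080, so this median does not describe the 8 genes. Cells 33 and 60 each had 7 of 20 markers at 10 RPKM or more, against 0 to 4 in the other 12 cells. Other members were listed at 0 in both, such as H2-Ab1 and Bst2 (-1.99). Bst2 was highest in Mpo-low cell 3, at 115 RPKM, and was 53.1 to 93.2 RPKM in 5 Mpo-high cells. H2-DMb1 (-1.97) was 149 RPKM in cell 60, listed at 0 in the other 4 Mpo-low cells, and 26.8 to 138 RPKM in 5 Mpo-high cells. Cd7 was 656 and 813 RPKM in cells 33 and 60 and was listed at 0 in the other 12. Cd209a, a lectin of monocyte-derived dendritic cells, was 625 RPKM in cell 33 alone. Spib and Siglech, genes of plasmacytoid dendritic cells, were 36.2 and 9.23 RPKM in cell 60 alone, and Cox6a2 was 89.0 in cell 60 and 64.4 in cell 68. H2-DMa, which loads peptides on class II molecules, was higher by 2.21 (but -1.19 under SCP-170608), at 303, 197, 0, 533 and 366 RPKM in cells 3, 33, 54, 60 and 68 against 0 to 211 RPKM (median 58.9). Cd7, Cd209a, Spib, Siglech and Cox6a2 were picked for cells 33 and 60 after their values were seen.

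**Figure D3:**
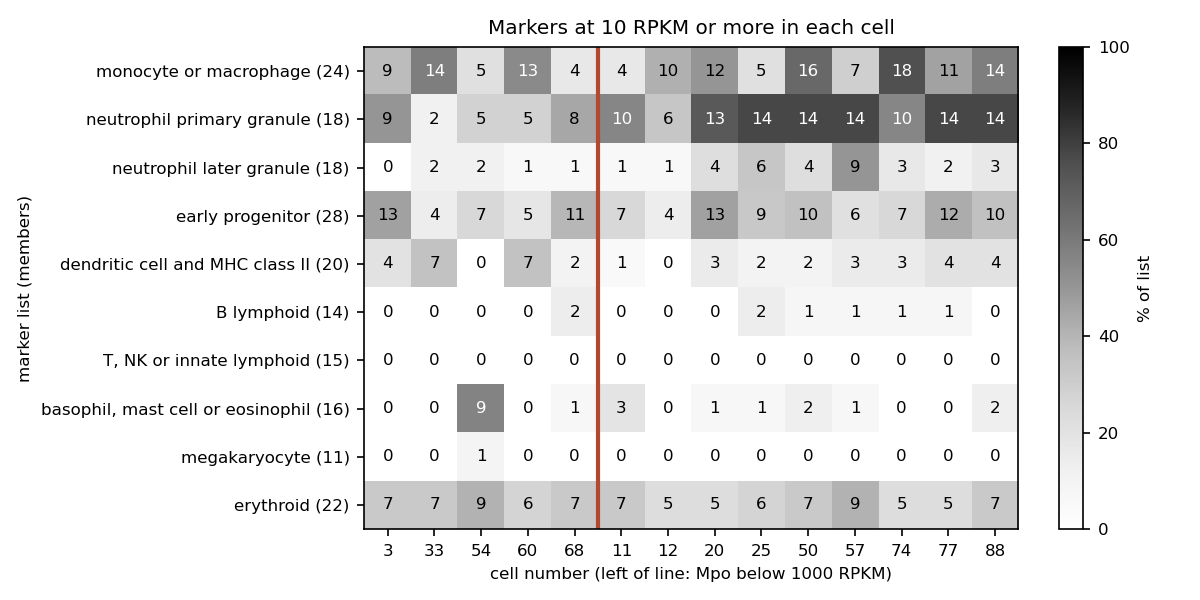
Number of markers at 10 RPKM or more (figures in the squares) of each marker list (rows, with the number of members) in each of the 14 cells (columns); shading is the percent of the list. Cell 54 has 9 of 16 basophil, mast cell or eosinophil markers, and cell 74 has the most monocyte markers, 18 of 24.

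Early progenitor genes had a median difference near 0, at 0.04 over 17 genes, beside -0.72 for all genes. Of the 17, 1 was higher and 3 lower by at least 2, against 2.44% and 18.9% of all genes. Without cell 3 the list median was -1.01 and without cell 33 or 60 it was 0.53. By code the list median was 0.69 (SCP-170608) and 0.47 (SCP-1706080), where all genes had -1.29 and -0.21. Flt3, the receptor of multipotent and lymphoid-primed progenitors, was the higher gene (2.49). It was 32.7, 137, 0, 14.5 and 145 RPKM in cells 3, 33, 54, 60 and 68. Mpo-high cells 12, 20 and 74 listed it at 105, 41.8 and 36.5 RPKM, and the other 6 at 3.55 or less. Cd34 was 133 and 495 RPKM in cells 3 and 68 and listed at 0 in cells 33, 54 and 60, against 0 to 254 RPKM (median 93.0). Cd27, a receptor of the tumour necrosis factor family, followed Cd34 in the Mpo-low set, at 262 and 219 RPKM in cells 3 and 68. Among the Mpo-high cells it reached 73.2 RPKM in cell 77 and 43.7 in cell 88.

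The 3 lower genes of 17, beside 18.9% of all genes, were Lmo2, Myb and Ly6a. Myb, a factor of proliferating progenitors, was 71.7, 39.1 and 21.1 RPKM in cells 3, 60 and 68 and listed at 0 in cells 33 and 54, while all Mpo-high cells listed 21.4 to 173 RPKM. Lmo2, a bridging factor of blood progenitors, was 58.0 and 85.4 RPKM in cells 3 and 68 and at most 0.239 in the other 3, against 0 to 303 RPKM. Ly6a (Sca-1) was 1320 and 1227 RPKM in cells 33 and 60 and at most 13.1 in cells 3, 54 and 68, while 8 of 9 Mpo-high cells had 251 to 1507 RPKM. Kit was listed at 0 in all 5 Mpo-low cells and reached 17.1 RPKM in the Mpo-high cells. Markers at 10 RPKM or more were 13, 4, 7, 5 and 11 of 28 in cells 3, 33, 54, 60 and 68 and 4 to 13 in the Mpo-high cells.

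The Mpo-low cells did not share 1 program by these lists. Cell 54 listed Prss34 at 45416, Mcpt8 at 19707, Cpa3 at 2179 and Fcer1a (a chain of the IgE receptor) at 1852 RPKM. It also listed Ms4a2 at 748, Il4 at 420 and the factor gene Gata2 at 419 RPKM. In all it had 9 of 16 basophil, mast cell or eosinophil markers at 10 RPKM or more, against 0 to 3 in the other 13 cells. Prss34 was listed at 0 in all of these except cell 60 (0.298 RPKM). Mcpt8 was wider spread, at 117 RPKM in cell 68 and 445 in cell 11, and Cpa3 was 142 RPKM in cell 11. By its leading genes cell 54 is a Prss34 and Mcpt8 cell. Without it the monocyte list median difference was 1.04, the primary granule list median difference -3.51 and the early progenitor list median difference -0.51.

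Cells 33 and 60 were alike in Ly6c2, Ly6a, Cd14, Mpeg1, Cd7 and S100a4 and listed Cd34 and Cd27 at 0. Klf4, a factor of monocyte formation, was 44.6 and 89.0 RPKM in them, 31.2 in Mpo-high cell 74 and at most 4.44 in all others. Cell 60 also listed Mir144, the precursor of an erythroid microRNA, at 1075 RPKM, above the highest of the 53 globin-rich cells (686 RPKM). It had the highest Hba-a1 of the 14 cells. Its erythroid list count was 6 of 22, within the 5 to 9 of the other cells, and whether more than 1 cell was captured with it was not tested.

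Cells 3 and 68 shared Cd34, Cd27 and Lmo2 but differed in Irf8, at 805 RPKM and 0. Cell 3 had the highest Mpo, Prtn3, Elane and Ctsg of the Mpo-low set and listed 9 of 18 primary granule markers, between the 6 of cell 12 and the 10 of cells 11 and 74. Bex6, a progenitor transcript, was 505 RPKM in cell 3 and at most 158 in the other 13 cells. Cell 68 listed Adgrl4 at 188, Muc13 at 265 and the lymphoid gene Dntt (terminal transferase) at 83.0 RPKM, and Dntt was listed at 0 in the other 13. It also listed Gstm1 and Lyz2, as many Mpo-high cells did. Adgrl4, Muc13, Dntt and Bex6 were singled out after their values were seen.

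**Figure D4:**
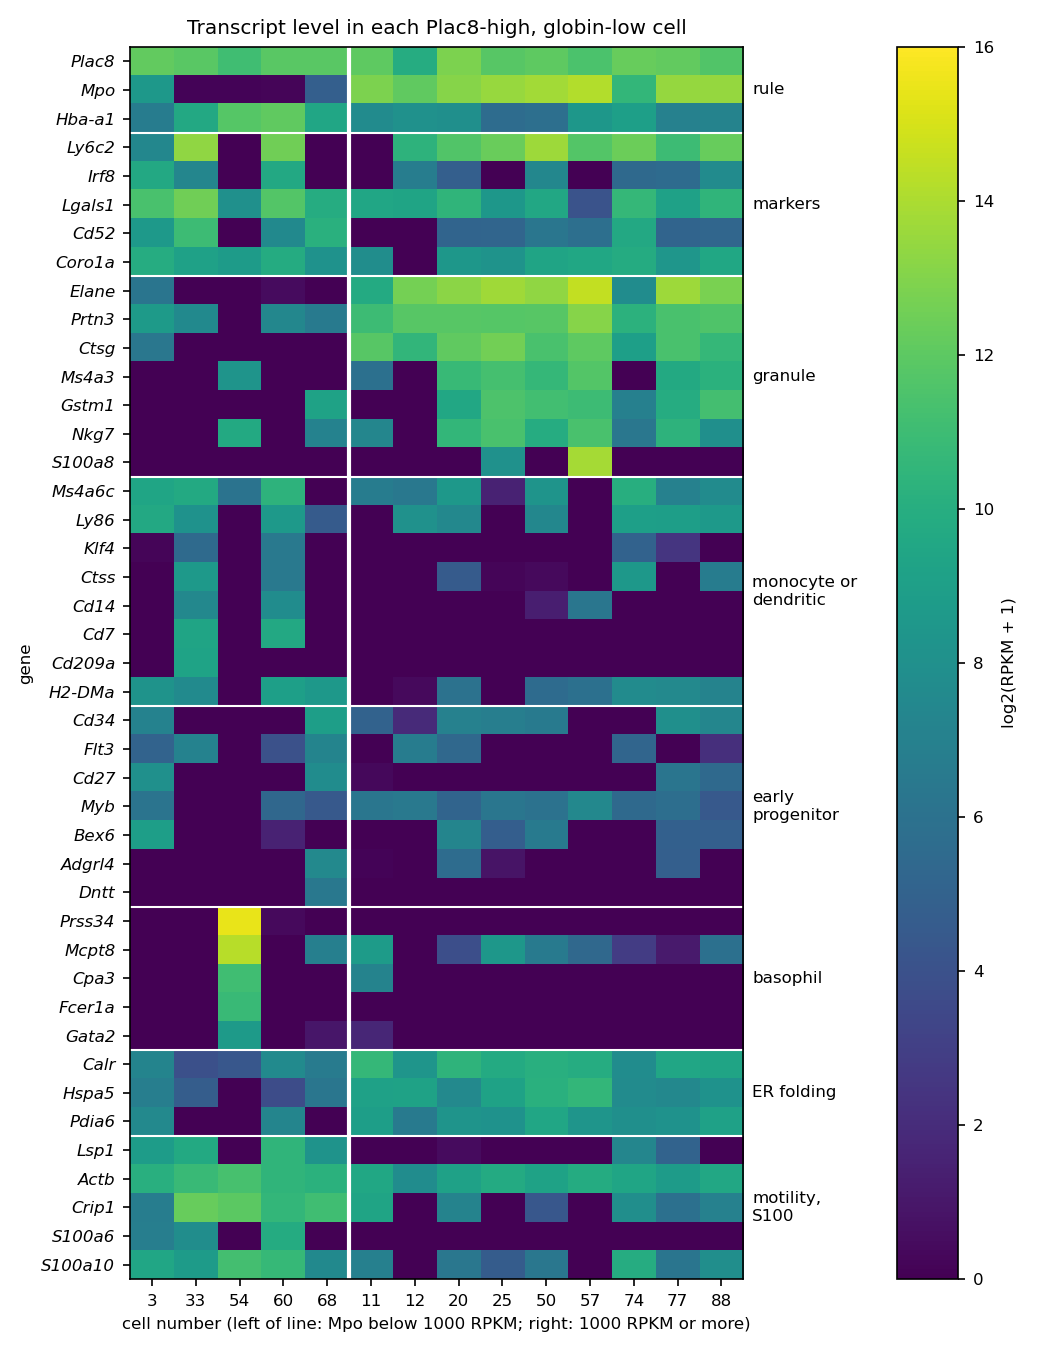
Level of 43 genes (rows, grouped) as log2(RPKM + 1) (colour) in each of the 14 cells (columns, Mpo-low left of the white line). The Prss34 to Gata2 block is bright in cell 54, Cd7 in cells 33 and 60, and Cd34 and Cd27 in cells 3 and 68 of the Mpo-low set. Elane, Prtn3 and Ctsg are brighter in every Mpo-high cell than in any Mpo-low cell. The other granule genes, Ms4a3, Gstm1, Nkg7 and S100a8, are each at 0 in some Mpo-high cells.

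Pearson correlations between cells over the 7384 genes are a description, since genes are not replicates and low depth and zeros enter every pair. Pairs of Mpo-low cells had r of 0.30 to 0.46 (median 0.41, 10 pairs), and pairs of Mpo-high cells 0.24 to 0.63 (median 0.52, 36 pairs). Without cell 12 the latter were 0.47 to 0.63 (median 0.54, 28 pairs). Pairs between the sets had 0.25 to 0.52 (median 0.42, 45 pairs), about the median within the Mpo-low set. Cell 3 had its highest r with Mpo-high cells 88 and 50 (0.52 each), and cell 68 with Mpo-high cell 20 (0.50). Cells 33 and 60 had theirs with each other (0.46), and cell 54 with cell 33 (0.36). The margin was small, as cell 60 had 0.45 with cell 3 and 0.44 with Mpo-high cell 74, and cell 33 had 0.45 with cell 74.

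The Mpo-high cells also varied. Cell 57 had the most later granule genes, at 14680 RPKM for S100a8, 4920 for S100a9, 919 for Fcnb, 208 for Camp and 183 for Ngp, and had 9 of 18 of that list at 10 RPKM or more against 1 to 6 in the other 8. Of these genes, the other 8 cells listed S100a8 at 269 RPKM in cell 25 and Fcnb at 1.60 in cell 50, with all further values at 0. Other genes of the list were spread differently: Lcn2 was 29.1, 60.1 and 67.2 RPKM in cells 20, 25 and 50 and listed at 0 in cell 57, and Anxa1 was listed in 8 of 9 Mpo-high cells. Cell 74 lay nearest the Mpo limit. In some genes, picked with values in view, it lay within the range of the Mpo-low cells. These were Lsp1 at 161 and Cd52 at 796 RPKM, and Hp, Igsf6 and Trem3 listed at 0. Its Elane (220 RPKM), Ctsg (513) and Prtn3 (1221) lay above every Mpo-low cell, and its highest r was with Mpo-high cell 77 (0.51). Cell 11 listed Ly6c2 and Irf8 at 0 with Ctsg at 3662 RPKM. Cell 12 had the fewest genes and the lowest r with all others, at most 0.30.

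Transcription factor genes of myeloid cells had a median of -0.45 over 21 genes, with 0 higher and 6 lower by at least 2, beside 18.9% lower and a median of -0.72 among all genes. By code the median was -1.63 (SCP-170608) and -0.53 (SCP-1706080). Besides Spi1 (-3.08) these included Nfe2 (-3.83), a factor of megakaryocytes and red cells that was 116 and 227 RPKM in cells 3 and 68 and at most 0.248 in cells 33, 54 and 60. The Mpo-high cells listed Nfe2 at 14.7 to 341 RPKM. Gfi1 and Cebpe, factors of granulocyte formation, were listed at 0 in all 5 Mpo-low cells, with differences of -2.95 and -2.31. In the Mpo-high cells they were at 10 RPKM or more in 5 and 3 of 9 and reached 58.2 and 97.7 RPKM. Tfec (-3.52) was listed at 0 in all 5 Mpo-low cells and reached 214 RPKM. For Gfi1, Cebpe and Tfec, which are among the 6 lower genes, the filter fixed the direction. Cebpd (-3.03) was 55.4 RPKM in cell 3 alone of its set.

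Of 16 cytokine and growth factor receptor genes compared, 3 were higher and 3 lower by at least 2, against 2.44% and 18.9% of all genes. The list median was -0.32, beside -0.72 for all genes. Cxcr4, the receptor for the marrow chemokine CXCL12, was higher by 3.22. It was 35.6, 7.52, 2.07, 86.1 and 97.5 RPKM in cells 3, 33, 54, 60 and 68, against 0 to 10.7 RPKM (median 0.282). The sets overlapped through cells 33 and 54. Csf3r, the G-CSF receptor, was lower (-2.55), at most 2.69 RPKM in the Mpo-low cells and 0.0938 to 329 RPKM in the Mpo-high cells, 5 of which were at 10 RPKM or more. Csf1r, the M-CSF receptor, was 32.7 and 36.9 RPKM in cells 3 and 33 and listed at 0 in cells 54, 60 and 68, against 0 to 475 RPKM (median 8.34).

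Genes of the cytoskeleton and motility had a median of 0.52 over 37 genes, beside -0.72 for all genes. By at least 2, 5 were higher and 1 lower, against 2.44% and 18.9% of all genes. Actb, cytoplasmic actin, was 1107, 1859, 2575, 1400 and 1172 RPKM in cells 3, 33, 54, 60 and 68 and 215 to 906 RPKM (median 667) in the Mpo-high cells. The sets did not overlap, with log2 means of 10.59 ± 0.51 (SD, 5 cells) and 9.22 ± 0.64 (SD, 9 cells), a difference of 1.37 that is below the size rule. Lsp1, a leukocyte actin-binding protein, was higher by 6.01, at 465, 826, 0, 1423 and 291 RPKM in cells 3, 33, 54, 60 and 68. Mpo-high cells 74 and 77 listed it at 161 and 33.7 RPKM and the other 7 at 0.392 or less. Itgb7, an integrin chain, was 22.8 to 104 RPKM in cells 3, 33, 54 and 60 and listed at 0 in cell 68, against 21.1 in cell 74 and 0 in the other 8.

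Galectin, annexin and S100 genes split in direction, with 5 of 18 higher and 6 lower by at least 2, against 2.44% and 18.9% of all genes. The list median was 0.84, beside -0.72 for all genes. By code the list median was -2.13 under SCP-170608 and 1.80 under SCP-1706080, where all genes had -1.29 and -0.21. Crip1, a LIM domain protein, was higher by 5.92, at 110, 4978, 3955, 1568 and 2210 RPKM in cells 3, 33, 54, 60 and 68 against 0 to 657 RPKM (median 58.5). S100a10 was higher by 4.19, at 196 to 2412 RPKM against 0 to 958 RPKM (median 81.5). S100a6 was 112, 230 and 934 RPKM in cells 3, 33 and 60 and listed at 0 in the other 11 cells, so the filter fixed its direction. Anxa3, an annexin of neutrophils, went the other way by -5.07, at 319 RPKM in cell 54 alone of its set and 69.2 to 301 RPKM in 8 of 9 Mpo-high cells. Anxa1 was lower (-2.77), although cell 54 had the highest value of all 14 cells, 1240 RPKM. Of the 6 NADPH oxidase genes 0 were higher and 1 lower, Ncf4 (-3.04), while Cyba was listed in all 14 cells at 252 to 803 and 134 to 1348 RPKM.

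Cathepsin and lysosome genes had a median of -1.75 over 23 genes, with 1 higher and 10 lower by at least 2, against 2.44% and 18.9% of all genes. Cd68, a lysosomal membrane protein, was listed at 0 in all 5 Mpo-low cells and was 27.3 to 197 RPKM in 7 of 9 Mpo-high cells. Its direction was thus fixed by the filter. Cd63, a granule tetraspanin, was 2756 RPKM in cell 54 and listed at 0 in cells 3, 33, 60 and 68, against 0 to 2121 RPKM (median 104). Ctsd was 635 RPKM in cell 54 and listed at 0 in the other 4, against 0 to 303 RPKM. Under SCP-170608 the list median was -3.13 and under SCP-1706080 it was -0.086, close to the all-gene median of -0.21 there.

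Ribosome biogenesis genes were lower by at least 2 in 10 of 22, with 0 higher and a median of -1.83, against 18.9% lower among all genes. By code the median was -1.63 (SCP-170608) and -1.55 (SCP-1706080). Fbl, the nucleolar methylase fibrillarin, was at most 0.866 RPKM in the Mpo-low cells and 21.0 to 193 RPKM in 8 of 9 Mpo-high cells. Myc, which drives this program, was 69.0 RPKM in cell 68, listed at 0 in the other 4 Mpo-low cells, and was 34.7 to 288 RPKM in 7 of 9 Mpo-high cells. S phase genes had a median of -0.85 (0 higher, 4 lower of 22), which was -1.13 under SCP-170608 and 0.35 under SCP-1706080. G2 and M phase genes had a median of -0.56 (0 higher, 5 lower of 23), made of opposite values by code, -3.48 under SCP-170608 and 1.40 under SCP-1706080, where all genes had -1.29 and -0.21. Cell 33 had the most G2 and M markers of the Mpo-low set, 19 of 25, a count that cell 77 reached as well. It listed Birc5 at 1122 RPKM, the highest of the 14 cells. The difference of Birc5 was 2.21 under SCP-1706080 against -2.94 in all cells. Cell 3 had 20 of 22 S phase markers at 10 RPKM or more, and cells 54 and 12 had 2 each.

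Housekeeping genes had a median of -0.83, with 0 higher and 6 lower of 20. Among all genes the median was -0.72, with 2.44% higher and 18.9% lower. By code the housekeeping median was -0.58 (SCP-170608) and 0.32 (SCP-1706080), where all genes had -1.29 and -0.21. The largest differences were those of Tpi1 (triose phosphate isomerase) at -5.08, Ldha (lactate dehydrogenase) at -4.38, Eno1 at -3.54 and Pgk1 at -3.43. Gapdh, also an enzyme of glycolysis, differed by -0.34, with medians of 1076 and 1212 RPKM. Ldha was 775, 27.4, 0, 14.2 and 259 RPKM in cells 3, 33, 54, 60 and 68 and 480 to 1540 RPKM (median 804) in the Mpo-high cells, overlapping through cell 3 alone. Tpi1 was 342, 0, 0, 12.2 and 103 RPKM against 77.4 to 849 RPKM. Of 18 interferon response genes 2 were higher and 1 lower, with a median of 0.11, which was -1.07 under SCP-170608 and 1.00 under SCP-1706080. Of 10 erythroid genes 3 were higher and 0 lower, 2 of them the alpha-globin pair Hba-a1 and Hba-a2, which the rule used and whose values are nearly equal, and the third Car2 (2.13, but -0.48 under SCP-1706080), at 149 RPKM in cell 68 and 35.0 in cell 60.

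Outside the lists, the genes whose values did not overlap were few. Higher in every Mpo-low cell were H3f3a, a histone H3.3 gene, at 1742 to 3018 RPKM against 598 to 1303 RPKM, and Gm12657, which had a median of 0.252 of its value and may share its reads. Sepw1, a selenoprotein, was 169 to 368 RPKM against 0 to 123 RPKM, and Rab11a, a GTPase of recycling endosomes, 46.2 to 424 RPKM against 0 to 43.2 RPKM. H3f3a and Gm12657 differed by 1.16 and 1.09, below the size rule. Lower in every Mpo-low cell was Mt1, metallothionein 1, listed at 0 in all 5 and at 0.94 to 869 RPKM (median 433) in the Mpo-high cells. The 0.94 RPKM was in cell 12, which had the fewest genes, and 8 of 9 Mpo-high cells reached 10 RPKM. Scamp2, a secretory carrier membrane protein, was also listed at 0 in all 5, against 13.9 to 160 RPKM. For Mt1 and Scamp2 the filter fixed the direction. Echs1, an enzyme of fatty acid oxidation, was at most 0.308 RPKM against 20.8 to 258 RPKM. Acly, which makes acetyl-CoA in the cytosol, was 15.2 RPKM in cell 33 and listed at 0 in the other 4, against 27.7 to 103 RPKM. Ruvbl1, a helicase of chromatin remodelling complexes, was 30.4 RPKM in cell 33 and listed at 0 in the other 4, against 44.3 to 170 RPKM, and Uap1 had the smallest gap (0.101 against 0.239 RPKM).

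By size alone, Plp2, a membrane protein, was the gene outside the lists with the highest difference, 6.43, at 441, 248, 29.8, 960 and 319 RPKM in cells 3, 33, 54, 60 and 68. Mpo-high cells 74 and 88 listed it at 126 and 88.6 RPKM, and the other 7 at 0.459 or less. Aif1, a calcium-binding protein of macrophages, was 45.8, 301 and 214 RPKM in cells 3, 33 and 60 and listed at 0 in the other 11 cells. Its direction was thus fixed by the filter. Ccl4, a chemokine, was 364, 208 and 434 RPKM in cells 54, 60 and 68 and 81.5 in Mpo-high cell 74. Hp (haptoglobin, -6.81), Igsf6 (-6.43) and Trem3 (-6.14) were listed at 0 in all 5 Mpo-low cells and in cell 74, so the filter fixed their direction. In the other 8 Mpo-high cells Hp was 57.4 to 1136 RPKM and Igsf6 30.9 to 361 RPKM. The values of cell 74, the Mpo-high cell nearest the limit, thus joined those of the Mpo-low cells in these 3 genes.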

How the data were processed

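RPKM values of 96 single cells, each with its own library, were used as the authors deposited them, with 34899 transcript rows for 24321 symbols. Per the submitters' processing notes TopHat2 2.0.9 and build mm9 were used, and the quantification tool is not given in the sources used here. A gene took the value of its highest transcript row in each cell. Values were analysed as log2(RPKM + 1) in Python 3.11.15 with pandas 2.3.3, for genes reaching 1 RPKM in 3 or more of the 14 cells. No test was run, since all cells have 1 label and no animal is named, and a size of at least 2 on the log2 scale and the absence of overlap were counted. Cells were grouped by the limits stated in the report. Depth was estimated from the steps between low values, of which 61.5% to 70.1% per cell came out whole within 0.06. A step may stand for a read or for a pair. The calculation of differences was checked on simulated data with known differences.

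The members and the 22 gene lists were chosen with earlier results of these data known. Named were Plac8, Mpo, Hba-a1, Rpl11, the proposed markers, in each list the 4 most different genes of those at 10 RPKM in at least 50% of the cells of either set, list genes without overlap, and up to 10 further genes in each direction. 1 gene named by this rule is not reported here. Further genes were chosen with their values in view. Markers of T, NK or innate lymphoid cells and of megakaryocytes had 0 genes compared, and those of B cells and basophils 1 each (Cd79b at -3.91 and Mcpt8 at -0.53). Every Mpo-low cell listed Cd79b at 0, so the filter fixed its direction. Later granule genes had 4 compared, with a median of -1.88 and 1 lower. Doublets were not called. Alternatives were other pseudocounts, filters, limits, scalings, transcript sums, medians, single codes and each cell left out.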

Additional observations from a re-analysis of the deposited data

How the results depend on the processing

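Results were recomputed under 34 settings, of which those without cells 12 and 54, and without 12, 54 and 74, were chosen after seeing the data. The primary granule median stayed below 0 in all of them (-5.98 to -2.69, and -5.23 to -3.51 with each cell left out). The monocyte median ran from -1.60 (code SCP-170608) to 1.81 (without cells 12, 54 and 74), and from -0.36 to 1.32 with each cell left out. The early progenitor median ran from -0.85 to 0.69, and from -1.01 to 0.53. In place of 180 higher genes there were 432 with pseudocount 0.1, 25 with pseudocount 10, 432 with summed transcripts and 381 with an Hba-a1 limit of 2000 RPKM, the last 2 with 3 Mpo-low cells left. Medians over cells gave 327, code SCP-1706080 gave 636, and leaving out each cell gave 146 to 302. In place of 1398 lower genes there were 2838 with pseudocount 0.1, 193 with pseudocount 10 and 1247 to 1806 with each cell left out. A pseudocount changes differences of genes at or near 0 by construction, and the cause of the other changes was not tested. Of 81 named genes past the size rule, 76 had the same sign in every setting. Signs turned for Cd52 (-0.96) and H2-DMa (-1.19) under code SCP-170608 and for Birc5 (2.21), Car2 (-0.48) and Ly6c2 (0.78) under SCP-1706080. The all genes median difference, -0.72, was -0.82 after rescaling each cell to a total of 1000000, with or without globin, and -0.003 with medians over cells. Depth limits genes listed at 0, and housekeeping genes at 0 in 4 cells show that such zeros occur. No paired analysis was possible because all cells have 1 label and no replicate numbers shared between groups.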
